A study of Drosophila melanogaster with 3 samples.

Results

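Of the 5219 strong peaks of BtbVII in the fly embryo, 239 (4.58%) held a GA run, defined as 8 or more bases that strictly alternate between guanine and adenine on either strand, within 100 bp of the summit. BtbVII is a Drosophila protein with a BTB domain, a fold through which such proteins pair with one another. Its chromatin was mapped by chromatin immunoprecipitation and sequencing (ChIP-seq) in a transgenic line that stably expresses BtbVII joined at its C terminus to enhanced GFP, with an antibody against GFP. The material was whole embryos of mixed sex, 0 to 24 h old, so all embryonic cell types and stages are averaged, and the sonicated chromatin had a stated size range of 200 to 800, without a unit. The 3 libraries, biological replicates 1, 2 and 3, form 1 group, all of the tagged line, and no untagged group was compared. The copy number of BtbVII in the line was not known here. Strong peaks are the reproducible set that the authors deposited on genome build dm6. They are also the regions of highest signal in the authors' pooled list of 30000 candidates. The members were found by reading the 201 bp around each summit in the Release 6 genome, and signal played no part in choosing among the strong peaks.

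GA runs, read as CT runs on the other strand, are the classical binding sequence of GAGA factor, the product of Trl, which carries a BTB domain and opens chromatin at promoters and enhancers. Pipsqueak, encoded by psq, is another BTB protein that binds GA repeats, and the zinc finger protein CLAMP binds GA-rich sites at the male X chromosome and at histone genes. The question put to the data was where the strong BtbVII peaks with such a sequence lie, how strong they are and which genes they are near, compared with the 4980 strong peaks that lack one.

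The windows below show what a GA run looks like at these peaks, with every run of 8 or more bases in capitals. Each is the plus strand of dm6, written 5′ to 3′, and the summit is the middle base. The first 3 belong to some of the strongest peaks with a run: in an intron of Lk6, which encodes a kinase of the translation factor eIF4E (chr3R:11760965-11761165), 174 bp upstream of CG1907 (chr3R:29618791-29618991) and 431 bp upstream of CG9743 (chr3R:30203329-30203529).
Lk6: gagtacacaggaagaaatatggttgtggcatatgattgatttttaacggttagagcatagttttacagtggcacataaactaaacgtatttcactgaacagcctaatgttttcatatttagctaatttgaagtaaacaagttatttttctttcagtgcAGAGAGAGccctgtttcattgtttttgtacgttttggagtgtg
CG1907: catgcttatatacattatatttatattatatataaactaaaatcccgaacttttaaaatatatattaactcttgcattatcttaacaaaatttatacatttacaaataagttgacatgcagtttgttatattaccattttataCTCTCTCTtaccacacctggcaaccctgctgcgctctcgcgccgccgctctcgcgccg
CG9743: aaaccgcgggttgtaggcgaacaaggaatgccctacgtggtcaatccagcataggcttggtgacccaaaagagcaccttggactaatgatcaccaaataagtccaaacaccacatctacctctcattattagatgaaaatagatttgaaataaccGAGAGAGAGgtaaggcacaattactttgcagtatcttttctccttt
The next 2 hold the longest runs, of 41 bases in an intron of the forkhead gene CHES-1-like (chrX:7690739-7690939) and of 30 bases, 149 bp upstream of the cadherin gene Cad86C (chr3R:10826830-10827030). The last, with a run of 13 bases, lies in an intron of BtbVII itself (chr3L:3149343-3149543).
CHES-1-like: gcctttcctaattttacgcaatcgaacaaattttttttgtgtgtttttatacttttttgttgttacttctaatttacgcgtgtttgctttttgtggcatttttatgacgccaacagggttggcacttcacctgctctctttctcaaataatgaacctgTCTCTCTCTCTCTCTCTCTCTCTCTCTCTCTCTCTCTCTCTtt
Cad86C: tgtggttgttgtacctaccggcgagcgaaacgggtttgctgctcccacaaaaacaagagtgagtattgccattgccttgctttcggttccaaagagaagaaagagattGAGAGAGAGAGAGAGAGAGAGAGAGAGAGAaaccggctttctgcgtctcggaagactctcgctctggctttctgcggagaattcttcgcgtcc
BtbVII: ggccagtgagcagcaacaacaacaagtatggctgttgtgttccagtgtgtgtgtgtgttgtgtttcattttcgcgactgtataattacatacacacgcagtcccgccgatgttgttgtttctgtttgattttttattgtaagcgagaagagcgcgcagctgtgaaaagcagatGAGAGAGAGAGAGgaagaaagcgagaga
In all 6 windows the run lies beside the summit and not on it. Its centre is 61.5 bp away at Lk6, 46.5 bp at CG1907, 59 bp at CG9743, 78 bp at CHES-1-like, 22.5 bp at Cad86C and 79 bp at BtbVII. Among other members, runs of 25 bases at bif (centre at -12 bp) and 23 bases near lncRNA:CR44187 (centre at 2 bp) do reach the summit.

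Most runs were short. The longest run of a window was 8 bases in 92 of the 239 peaks, 8 or 9 bases in 135, 10 to 13 in 52 and 14 or more in 52. A single run was present in 207 peaks and more than 1 in 32. The longest run read GA on the plus strand in 125 peaks and CT in 114, and 4 peaks held runs of both kinds. Of the longest runs, 130 are written in lower case in the reference, the mark of a repeat. Just outside the rule stood 222 peaks whose longest run was 7 bases. Their median signal was 262.8, against 255.4 for the 92 with a run of 8. Of the peaks with 7 bases, 59.0% were promoter-proximal, against 66.3% of those with 8.

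GA runs were more frequent at strong peaks than at weaker candidates. Against the 239 of 5219 strong windows (4.58%, 95% interval 4.03 to 5.18), 553 of 21875 weaker windows (2.53%, 2.32 to 2.75) held a run. The odds ratio was 1.85 (1.58 to 2.16, two-sided Fisher's exact test, adjusted p = 4.85e-13). Weaker windows are those of the other pooled candidates more than 500 bp from any strong region. Across the genome cut into 201 bp tiles the share was 1.49% (9925 of 664860), and around the annotated transcription start sites (TSSs) of protein-coding genes it was 2.80% (540 of 19253). The excess was found near TSSs (odds ratio 1.73, adjusted Fisher p = 8.13e-06) and away from them (1.63, adjusted p = 0.000192). Runs that alternate C and A did not show it, at 6.57% of strong and 7.05% of weaker windows (odds ratio 0.928, adjusted Fisher p = 0.317), nor did runs of T and A, at 5.86% and 6.29% (odds ratio 0.928, adjusted Fisher p = 0.352).

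The excess was seen in each replicate's own list. Among the 5219 regions of highest signal, 5.33% of replicate 1, 4.08% of replicate 2 and 4.96% of replicate 3 held a GA run. In the rest of each list the shares were 2.91%, 2.68% and 2.43%. The share was higher in the upper part of all 3 lists, by ratios of 1.83, 1.52 and 2.04 (mean 1.80 ± 0.262 SD, n = 3), and the upper and lower shares did not overlap between replicates (4.79% ± 0.640 and 2.67% ± 0.238, SD, n = 3). An exact two-sided sign-flip permutation test over the 3 replicates gave p = 0.25, the smallest it can give. All other p-values here are over peaks, which are not independent where they neighbour each other, so the spread between embryo collections is not in them.

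Down the pooled list, the share with a GA run was 4.36% for ranks 1 to 2500 and 4.80% for ranks 2501 to 5000. It was 4.56% and 4.08% in the next 2 groups of 2500, which already lie below the strong peaks. From rank 10001 on it was lower, at 3.20%, and from rank 17501 it stayed between 1.96% and 2.20%. The fall in the share of summit windows came below the lowest strong peak. Windows of the same length centred 500 bp to either side also held runs less often down the list. Their share was 4.02% for ranks 1 to 2500, 2.76% for ranks 2501 to 5000 and 2.06% for ranks 27501 to 30000.

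**Figure D1:**
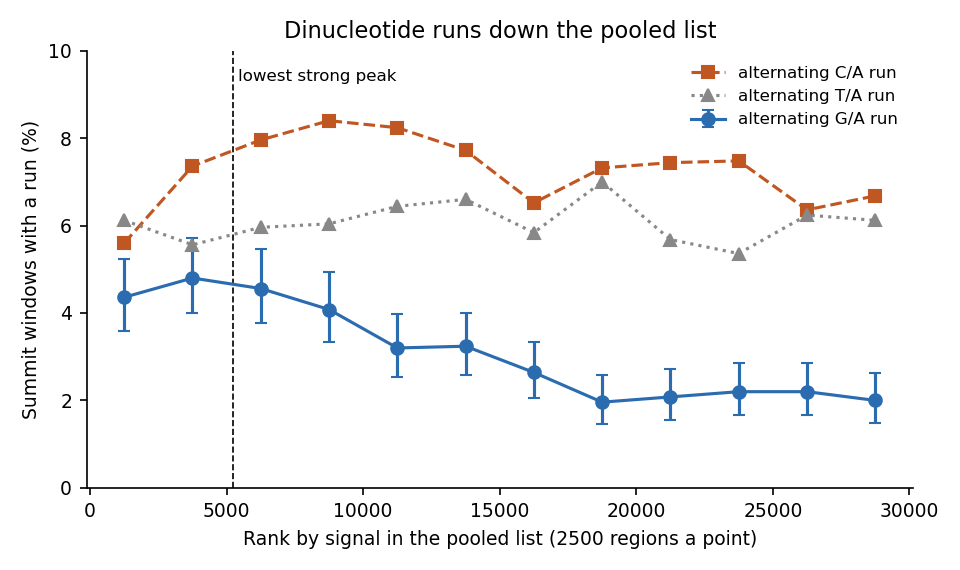
Share of summit windows (%, vertical axis) that hold a run of 8 or more alternating bases, for groups of 2500 regions by rank in the pooled list (horizontal axis); bars on the G/A points are exact 95% intervals and the dashed line marks the lowest strong peak. The G/A share runs from 4.80% at ranks 2501 to 5000 to 2.00% at ranks 27501 to 30000, while C/A and T/A runs show no such decline.

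Runs were concentrated beside the summit rather than on it. Within 50 bp of the summit, 0.234% of the bases of strong peaks lay in a GA run, against 0.356% at 50 to 99 bp, 0.384% at 100 to 149 bp and 0.368% at 150 to 199 bp. At 650 to 699 bp the share was 0.158%. In weaker candidates it was 0.177% within 50 bp and 0.156% at 50 to 99 bp, so the ratio of strong to weaker was 1.33 at the summit and 2.28 in the next 50 bp. Farther out the ratio stayed above that at the summit, between 1.5 and 1.87 from 500 to 999 bp. The excess over weaker candidates was thus not confined to the summit windows. Bases in C and A runs were likewise fewer at strong summits (0.324% within 50 bp, 0.624% at 100 to 149 bp), with ratios to weaker candidates of 0.745 and 1.20. Of the 239 members, the centre of the longest run was within 50 bp of the summit in 93 (38.9%, 32.7 to 45.4), against 295 of 553 weaker windows with a run (53.3%, 49.1 to 57.6). The odds ratio was 0.557 (0.404 to 0.767, Fisher's exact p = 0.000201, a test added after the data were seen and not adjusted). The median distance was 59 bp in strong and 48 bp in weaker windows.

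Windows of the same length centred 500 bp to either side held runs less often than the summit windows. Each strong peak was paired with both of its flanks, giving 10438 pairs, with a run in 4.58% of summit windows and 3.39% of flanks. In 448 pairs only the summit window had a run and in 324 only the flank did, a ratio of 1.38 (exact McNemar test, adjusted p = 3.67e-05). Each summit window stands in 2 of these pairs, which makes that p too small. With the flank of lower coordinate alone, 5219 pairs gave a ratio of 1.31 (exact McNemar test, adjusted p = 0.0211), and with that of higher coordinate 1.46 (adjusted p = 0.000902). The call was lost for windows of 50 bp on each side (ratio 1.02, adjusted exact McNemar p = 0.904). It was also lost, by the same exact test, in the 2609 peaks of higher signal (1.12, adjusted p = 0.413), among peaks supported by all 3 replicates (1.13, adjusted p = 0.309) and among those supported by replicates 2 and 3 (1.10, adjusted p = 0.360).

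**Figure D2:**
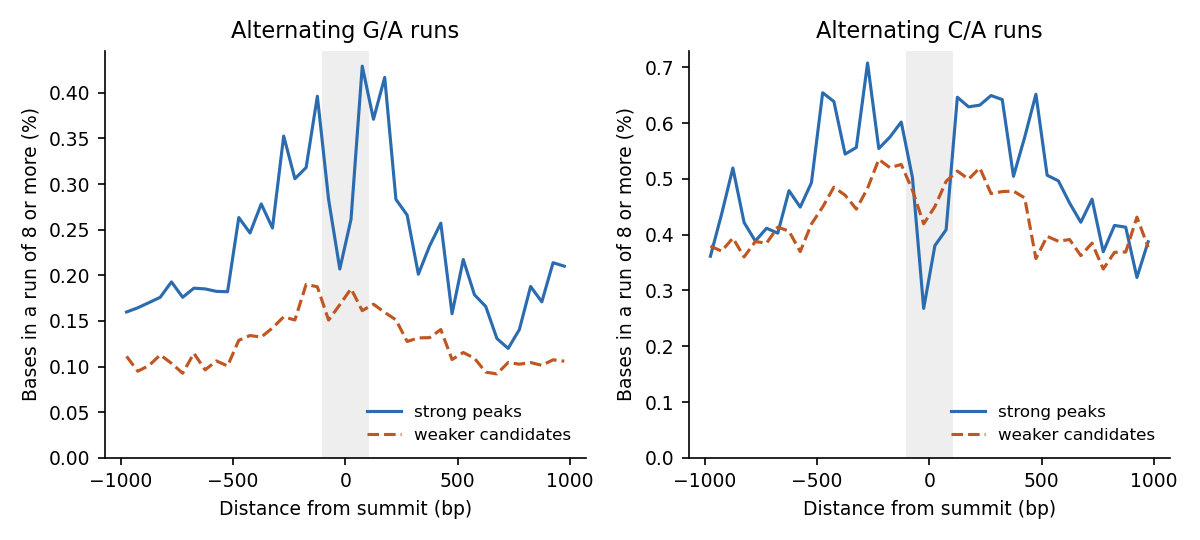
Share of bases (%, vertical axes) that lie in a run of 8 or more alternating G/A (left) or C/A (right) bases against distance from the summit in bp (horizontal axes), in 50 bp bins, for 5219 strong peaks and 21875 weaker candidates; the grey band is the window that defines the members. Strong peaks have a dip at the summit in both panels, and their G/A shares are above those of weaker candidates in every bin shown.

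Peaks with a run were weighted towards promoters. A summit within 500 bp of an annotated TSS was called promoter-proximal, as were 142 of the 239 (59.4%, 52.9 to 65.7), beside 49.4% of all strong peaks and 2436 of the 4980 without a run (48.9%). The odds ratio was 1.53 (1.17 to 2.01, Fisher's exact test, adjusted p = 0.00433). Introns outside promoters held 71 members (29.7%), beside 37% of all strong peaks (odds ratio 0.710, adjusted Fisher p = 0.0334), and intergenic sequence held 14 (5.86%), beside 10.4% (odds ratio 0.521, adjusted p = 0.0334). The intron call was kept under 2 and the intergenic call under 5 of the 15 alternatives run for each. The location classes share a single total, and among the 97 members outside promoters the intron share was 73.2% against 73.0% (odds ratio 1.01, adjusted Fisher p = 1). The remaining members lay in 5′ UTRs (5, 2.09% against 0.562% of those without a run), non-coding exons (5, 2.09% against 1.00%) and 3′ UTRs (2, 0.837% against 1.145%). These 3 small classes were not tested. Coding exons more than 500 bp from any TSS held 0 of the 239 (at most 1.26%, by 3 counts) and 20 of the 4980 without a run (0.402%), so this count is too small to compare.

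GC content moved with these location calls. Among strong peaks with 40 to 50% GC outside the run, 55 of 102 with a run (53.9%) and 744 of 1342 without (55.4%) were promoter-proximal, an odds ratio of 0.941 (adjusted Fisher p = 0.996). The promoter call was also lost among peaks supported by replicates 2 and 3 (1.36, adjusted Fisher p = 0.202) and among those supported by all 3 (1.44, adjusted p = 0.128). It was lost too with 50 bp windows (1.65, adjusted Fisher p = 0.0803), and at a minimum run of 6 bases (1.15, adjusted p = 0.0862), 10 bases (1.25, adjusted p = 0.416) and 12 bases (1.02, adjusted p = 1). Weaker candidates with a run were also more often promoter-proximal than those without, at 32.4% and 24.9% (odds ratio 1.44, 1.20 to 1.74), so the lean towards promoters was not tested as particular to strong peaks. The excess of runs at strong over weaker windows, by contrast, was present at this GC content, with 102 of 1444 strong windows (7.06%) and 258 of 8196 weaker ones (3.15%; odds ratio 2.34, adjusted Fisher p = 5.21e-10).

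**Figure D3:**
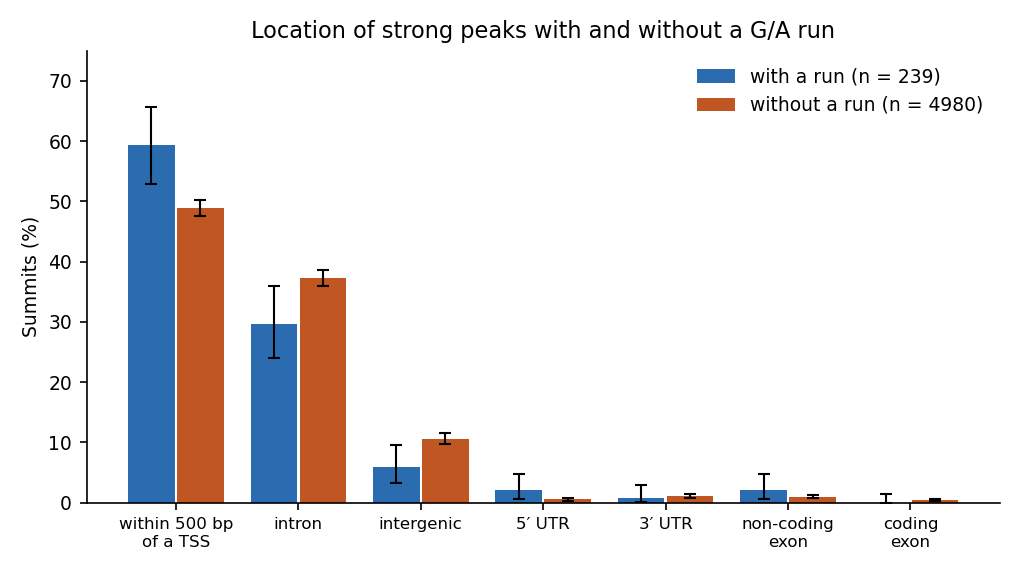
Share of summits (%, vertical axis) in each location class for strong peaks with and without a G/A run; bars are exact 95% intervals over peaks, and classes right of the first hold summits more than 500 bp from a TSS. Peaks with a run stand at 59.4% near a TSS against 48.9%, and at 29.7% in introns against 37.3%.

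Near TSSs, the run itself usually lay upstream. Of the 142 promoter-proximal members, 102 summits (71.8%, 63.7 to 79.1) were upstream of the nearest TSS, beside 68.3% of all promoter-proximal strong peaks. The odds ratio against those without a run was 1.19 (0.810 to 1.78, adjusted Fisher p = 0.441) and did not pass. The centre of the run was upstream in 105 and had a median position of −82 bp (quartiles −161 and 8.5). Neither strand was preferred: among 140 promoter-proximal members whose runs were all of one kind, GA was on the coding strand in 67 (47.9%, 39.3 to 56.5; two-sided exact binomial p = 0.673).

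No difference in signal passed the test with this window. Signal ran from 173.1 to 2052 over the members with a median of 254.7, and the median without a run was 258.4. Among the 2609 strong peaks of higher signal, which are 50% of all by construction, stood 115 members (48.1%, 41.6 to 54.7), against 50.1% of those without a run (odds ratio 0.924, 0.707 to 1.21, adjusted Fisher p = 0.596). With windows of 250 bp on each side the direction turned and the test passed, at 54.9% against 49.3% (odds ratio 1.25, adjusted Fisher p = 0.0117). By rank in each replicate alone, 57.3% of members and 50.9% of the others were in the upper 2609 in replicate 1, 46.0% and 50.8% in replicate 2, and 51.5% and 48.5% in replicate 3. The direction thus differed between replicates, and none passed Fisher's exact test (adjusted p = 0.0822, 0.241 and 0.404). Within the members, the length of the longest run and the signal showed no relation as a description over the 239 peaks (Spearman's rho −0.00487).

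Support by the replicates did not differ past the threshold. A peak is supported by a replicate when its summit lies in one of that replicate's 5219 regions of highest signal. All 3 replicates supported 131 members (54.8%, 48.3 to 61.2), beside 58.9% of all strong peaks (odds ratio 0.838 against those without a run, 0.641 to 1.10, adjusted Fisher p = 0.268). Replicate 1 supported 209 of the 239 (87.45%, against 84.14% of the strong peaks without a run). Replicate 2 supported 189 (79.08% against 84.42%) and replicate 3 supported 178 (74.48% against 75.76%). Counted in replicates 2 and 3 alone, support was lower for members, at 58.6% against 66.1% (odds ratio 0.724, adjusted Fisher p = 0.0293), while in replicates 1 and 3 it was 66.5% and 66.3% (odds ratio 1.01).

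Of the 12 results, GC content outside the run had the odds ratio farthest from 1. GC averaged 44.9% ± 8.39 (SD over 239 peaks) with a run and 37.4% ± 8.0 (SD over 4980) without. Below the median of all strong windows stood 45 members (18.8%), beside 48.9% of all strong peaks (odds ratio 0.229, 0.161 to 0.320, adjusted Fisher p = 9.07e-22). This call held under all 13 alternatives run for it. The share of strong peaks with a run was 0.546% at 25 to 30% GC and 15.7% at 50 to 55%. Weaker candidates showed the same direction, with 45.3% ± 7.73 with a run and 40.5% ± 8.13 without. The GC of windows with a C and A run but no GA run was 43.2% ± 7.54 (SD over 309 strong peaks). The members were chosen by a sequence with G or C as every other base, and its part in the GC difference was not tested.

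**Figure D4:**
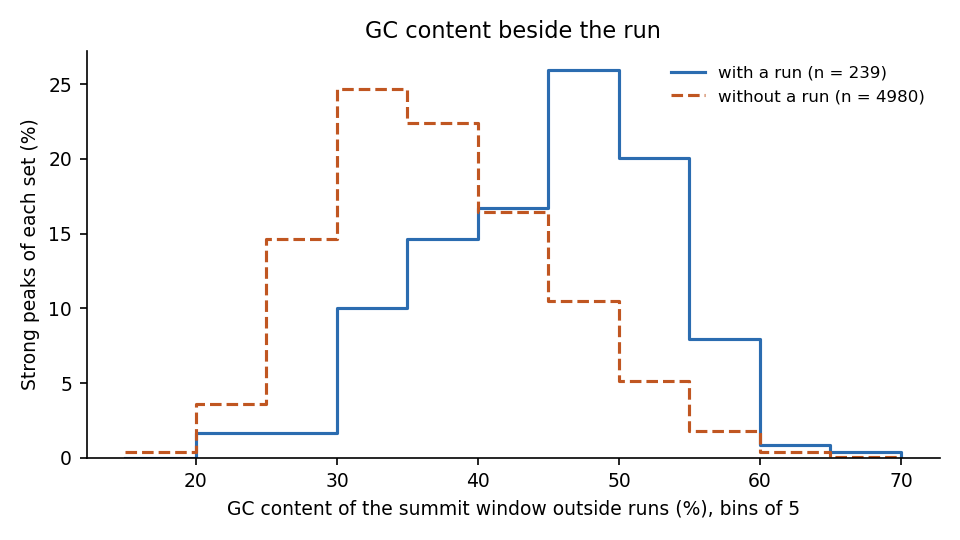
GC content of the summit window outside runs (%, horizontal axis, bins of 5) against the share of strong peaks of each set (%, vertical axis). Windows with a G/A run are most frequent at 45 to 50% (25.9% of them), and those without at 30 to 35% (24.7%).

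Other short sequences differed too. Runs were masked and both strands were searched for 20 patterns. Of these, 7 are core promoter, insulator or pioneer motifs: the DRE (TATCGATA), the BEAF site (CGATA), promoter motif 1 (GGTCACAC), the TATA box (TATAAA), the initiator (TCAGT), the Zelda core (CAGGTA) and the Zeste core (GAGTG). Another 8 are sites of transcription factor families: an E box (CAGCTG), the Twist E box (CATATG), the Pho core (GCCAT), the site of GATA factors (TGATAA), the Ets core (CCGGAA), the AP-1 site TGANTCA, the forkhead site (TGTTTAC) and the homeodomain core (TAATTA). The last 5 are tracts of 8 A, the hexamer TTAGGG and alternating runs of C and A, of T and A, or of G and C. The DRE contains the BEAF site. Windows with a GA run more often held an alternating C and A run (14.2%, beside 6.57% of all strong peaks; odds ratio 2.51, adjusted Fisher p = 4.21e-05). They more often held an alternating G and C run of 6 or more bases (11.3% against 3.55%; odds ratio 3.46, adjusted p = 2.12e-06), the GAGTG core of the Zeste protein (44.8% against 27.7%; 2.12, adjusted p = 2.80e-07) and the E box CAGCTG (15.9% against 9.08%; 1.89, adjusted p = 0.00264), all by Fisher's exact test. Over all weaker candidates, with and without a run together, the last 3 sequences stood at 3.24%, 29.9% and 8.50%. The homeodomain core TAATTA was less frequent with a run (3.77% against 16.3%; odds ratio 0.201, adjusted Fisher p = 6.18e-08), as were TATAAA (16.7% against 33.5%; 0.400, adjusted p = 1.77e-07), tracts of 8 A (5.02% against 14.5%; 0.312, adjusted p = 2.45e-05) and the initiator-like TCAGT (26.8% against 34.9%; 0.682, adjusted p = 0.0247). Over all weaker candidates, again with and without a run together, these 4 stood at 13.8%, 26.6%, 13.8% and 31.9%. Whether these motif differences are particular to strong peaks was not tested. The other 12 motifs did not pass (adjusted Fisher p from 0.0578 to 0.877). Among windows with 40 to 50% GC, which leaves 102 with a run, 1 of the 8 calls was kept, the G and C run (14.7% against 6.04%, odds ratio 2.68, adjusted Fisher p = 0.0276). The odds ratios of the other 7 kept their direction, at 1.94 for C and A runs, 1.22 for GAGTG, 1.67 for CAGCTG, 0.420 for TAATTA, 0.541 for TATAAA, 0.416 for A tracts and 0.917 for TCAGT. The CGATA site of the insulator protein BEAF, not called before, was then less frequent with a run (15.7% against 31.5%, odds ratio 0.404, adjusted p by Fisher's exact test = 0.0102).

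The 6 strongest members were strong in every replicate. The Lk6 peak (3R, 11760868 to 11761236) had a pooled signal of 2052 and ranked 35, 14 and 12 in replicates 1, 2 and 3. The peak in an intron of Tlk, a kinase gene of chromatin assembly (X, 3742038 to 3742388, signal 1882), ranked 25, 26 and 44. The peak at CG1907 (3R, 29618676 to 29619080, signal 1496) ranked 48, 65 and 70. These 3 had the shortest run the rule allows, 8 bases. Next came the Toll family receptor gene Toll-7 (2R, 19826129 to 19826456, signal 1342, 261 bp upstream, ranks 77, 74 and 113) and the lncRNA gene lncRNA:CR45352 (2L, 14022119 to 14022511, signal 1003, 345 bp upstream, ranks 168, 288 and 89). A peak in an intron of the helix-loop-helix gene crp (2L, 16269454 to 16269716) had a signal of 972.7 and ranks of 247, 152 and 207.

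The rest of the 20 strongest had signals from 579.5 to 905.3. They were nearest to CG9743, LPCAT, lncRNA:CR44026, prage, lncRNA:CR30055, CG6231, Tis11, CG31668, Pdp1, asRNA:CR45908, Best1, CG42671, BtbVII and CG6785, where Tis11, which encodes an RNA-binding zinc finger protein, is the host of an intronic summit. The prage peak (X, 1830624 to 1830912, signal 804.9) ranked 265 in replicate 2 and 307 in replicate 3, and its summit lay in no region of replicate 1. The BtbVII peak (3L, 3149218 to 3149667, signal 585.3) ranked 1335, 668 and 5705, so the third replicate placed it just outside its 5219 highest. It overlaps a stronger peak without a run (3L, 3149059 to 3149439, signal 1771), whose longest run was 7 bases.

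**Figure D5:**
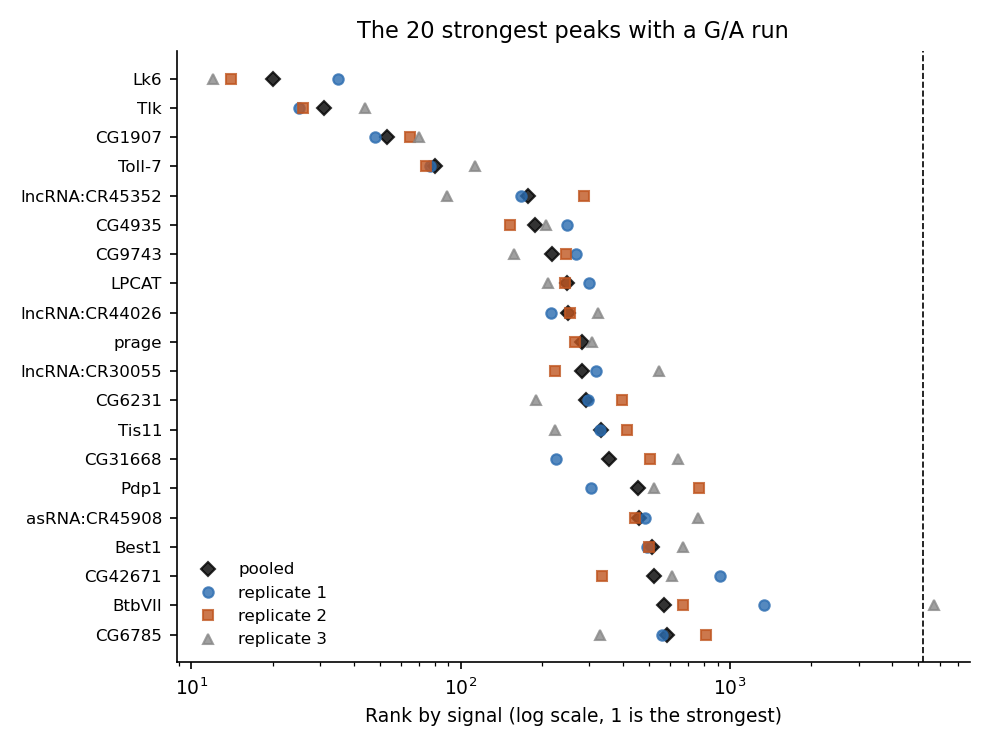
Rank by signal (horizontal axis, log scale, 1 is the strongest) of the 20 strongest peaks with a G/A run in the pooled list and in each replicate; the dashed line is at rank 5219. Ranks lie close together for most peaks, and the BtbVII peak at 5705 in replicate 3 is the one point beyond the line; prage has no point for replicate 1.

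The 10 peaks with the longest runs had signals from 187.0 to 485.7, beside a median of 254.7 over all 239 members. The strongest members above were picked by signal, so comparing with them cannot show whether long runs go with weaker peaks. The CHES-1-like peak (X, 7690779 to 7690916) had a signal of 485.7 and ranks of 1089, 973 and 462. The Cad86C peak (3R, 10826705 to 10827154, signal 187.0) ranked 2821, 7642 and 12062, so 1 replicate supported it. Csk, which encodes an inhibitory kinase of Src (3R, 11648830 to 11649279, signal 328.0, ranks 1468, 3015 and 1101), held a run of 29 bases, and bif, which encodes an actin-binding protein (X, 11686148 to 11686597, signal 435.1, ranks 789, 1369 and 982), one of 25. Others of the 10 longest lay in introns of sog, the secreted antagonist of Dpp (X, run of 23, signal 201.8), and of the kinase gene Raf (X, run of 22, signal 310.7). The remaining 4, with runs of 22 to 24 bases, had lncRNA:CR46110, mRpL40, lncRNA:CR44187 and lncRNA:CR46259 as the nearest TSS. Of the 10, 7 were in introns, but 5 peaks had a run of 22 bases and the 2 of higher signal were taken; the others lay near TSSs of Kank and blot and in an intron of rdx. Over all 52 peaks with a run of 14 or more bases, 36.5% were in introns and 50% promoter-proximal, beside 37% and 49.4% of all strong peaks.

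A total of 178 of the 3119 protein-coding genes with a strong summit within 1000 bp of a TSS (5.71%) were near one with a run. The gene lists below were chosen with earlier results of these data known, hold few genes, and are described by counts alone, without a test. The Dpp pathway and BTB lists had the larger counts. Of 8 Dpp pathway genes near a strong peak, 4 were near one with a run: Dad, the inhibitory Smad, tkv and sax, type I receptors of Dpp-family ligands, and Mad, the Smad that carries the signal. Of 10 BTB transcription factor genes, 4 were: BtbVII, chinmo, lola and ken. Of 12 EGFR and FGF genes, 2 were: pnt, an Ets factor at the end of the EGFR pathway, and bnl, the FGF ligand of the trachea. Some of these runs are shown here with 8 bases on each side, plus strand of dm6, run in capitals, together with Hsp26, whose promoter is a textbook case of CT repeats bound by GAGA factor. This choice was made after the values were seen. They lie upstream of the gene's own nearest TSS, by 102 bp at Dad (chr3R:17053891-17053919), 71.5 bp at tkv (chr2L:5237420-5237447), 66 bp at chinmo (chr2L:1651178-1651206), 124 bp at bnl (chr3R:19836928-19836954) and 35 bp at Hsp26 (chr3L:9377449-9377475), measured to the centre of the run.
Dad: ttaattttTCTCTCTCTCTCTaaacctcc
tkv: tctcgcaaAGAGAGAGAGAGtagacggg
chinmo: gctctcttTCTCTCTCTCTCTacggagca
bnl: acgagcacGAGAGAGAGAGtgcgatgc
Hsp26: gaaagagtAGAGAGAGAGAagagaaga

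Apart from the BtbVII peak, which ranked 568, the peaks at these genes had pooled ranks from 1325 to 4859. Dad (3R, 17053732 to 17054181, signal 376.8) ranked 905, 2460 and 1512, and Hsp26 (3L, 9377302 to 9377751, signal 335.4) ranked 1770, 1370 and 2102, both within the upper 5219 of every replicate. The tkv peak (2L, 5237179 to 5237628, signal 216.4) ranked 1889, 12484 and 3528, and the chinmo peak (2L, 1651050 to 1651499, signal 229.6) ranked 2214, 7800 and 2594, so replicate 2 supported neither. The bnl peak (3R, 19836717 to 19837166, signal 230.0) ranked 1798 and 3014 and had no region in replicate 3. The Mad summit (2L, 3158546 to 3158995, signal 181.8, ranks 4718, 5118 and 5742) lay 872 bp from its TSS in an intron, and the pnt summit (3R, 23346823 to 23347272, signal 249.6, ranks 2065, 3959 and 4715) lay 881 bp from its own. The peak counted for sax (2R, 7805405 to 7805854, signal 236.6) lay 854 bp from its TSS and was nearer to Nop17l, 64 bp upstream of that gene. The ken peak (2R, 23870163 to 23870612, signal 180.1) lay 115 bp from its own TSS.

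In 6 further lists a single gene was near a peak with a run. They were Psc, a subunit of Polycomb repressive complex 1 (1 of 7 Polycomb group genes, 2R, signal 273.2), ptc, the Hedgehog receptor gene (1 of 9 segment polarity genes, 2R, signal 266.6), ush, which encodes a GATA cofactor (1 of 6 gut, trachea and fat body genes, 2L, signal 303.8, run of 15), Ten-m, a teneurin gene (1 of 10 axon guidance genes, 3L, signal 178.4), chic, the profilin gene (1 of 12 cytoskeleton genes, 2L, signal 363.6), and Hsp26 (1 of 10 heat shock genes). Lists of basic metabolism and protein synthesis gave counts of 0 or 1. Of 72 ribosomal protein genes near a strong peak, 1 was near one with a run (1.39%), RpS19a (X, 16637878 to 16638327, signal 200.5, run of 16, ranks 673, 7544 and 604). None was among 24 mitochondrial ribosomal protein genes, which allows a share of up to 12.5%. Nor was any among 13 translation factor (up to 23.1%), 9 glycolysis (up to 33.3%) and 6 proteasome genes (up to 50%). Each limit is above the 5.71% of all protein-coding genes near a strong peak, so these lists are too small to compare. The counts were also 0 for trithorax group (8), ecdysone (7), cell cycle (7), Notch (6), insulator (6), chemoreceptor (6), muscle (5), neural (4), cuticle (3) and gap and pair-rule genes (2), and for 3 genes of GA-binding proteins and cofactors, where the numbers in parentheses are the genes near a strong peak. No Hox gene was near a strong peak of either kind.

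Strong peaks inside or within 1000 bp of the genes of GAGA factor and pipsqueak, both GA-binding BTB proteins, held no GA run. Beside the 4.58% of all strong peaks that held one, these peaks are too few to compare. Trl had 5 strong peaks, among them the fourth strongest of the whole list (3L, 14759310 to 14759751, signal 3114, ranks 4, 5 and 4), and the longest run in any of their windows was 5 bases. At psq there were 7 strong peaks with runs of at most 4 bases, while 2 candidates outside the strong set held runs of 12 and 9 bases (2R, signals 67.5 and 111.8). The candidate with 12 bases overlaps a strong psq peak (2R, 10566257 to 10566706, signal 304.5) and shares its regions in replicates 2 and 3. A strong peak farther off, 2430 bp upstream of psq, held a run of 17 bases (2R, 10555233 to 10555682, signal 215.6, ranks 3336, 5024 and 5359). One of 3 strong peaks in lola, which encodes many BTB zinc finger isoforms, held a run of 9 (2R, 10534920 to 10535369, signal 203.8). It overlaps a stronger neighbour and shares its regions in replicates 1 and 2 with it, so its ranks there, 1642 and 1363, are not its own alone, and in replicate 3 it ranked 12534. One of 3 strong peaks in or within 1000 bp of mod(mdg4), a BTB gene of insulators, held a run of 9 (3R, 21376165 to 21376614, signal 221.8, ranks 2398, 6739 and 4066), 1011 bp from a TSS.

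A few genes held more than 1 member. Within 1000 bp of a TSS, 2 peaks with a run were found at CG6231, Pdp1, REPTOR, Shrm, lbl, prage and shot. Pdp1 encodes a clock transcription factor, REPTOR a factor controlled by TORC1, lbl a homeodomain protein and shot a cytoskeletal linker. In 4 of these cases, CG6231, REPTOR, Shrm and lbl, the 2 summits were 203 to 984 bp apart, and no pair had overlapping summit windows. At CG6231 and lbl, however, the 2 deposited regions overlap. Their summits share a region in replicates 1 and 3 at CG6231 (ranks 296 and 191) and in replicates 1 and 2 at lbl (1050 and 1573). Those ranks are not either peak's own alone. How many genes had 2 strong peaks of any kind was not counted. Introns of Tlk, Raf, rdx and tna each held 2 members. Counts by distance to a TSS miss such intronic members, and single ones lay in introns of shn (pooled rank 649) and Dad (800) of the Dpp list and of trx (2151) of the trithorax list, 3 genes picked after the values were seen. Another strong summit lay within 1000 bp of 70 members (29.3%), beside 25.7% of all strong peaks (odds ratio 1.21, 0.894 to 1.62, adjusted Fisher p = 0.268). The X chromosome held 44 members (18.4%), beside 16.2% of the strong peaks outside chromosome 4 (odds ratio 1.17, 0.820 to 1.65, adjusted Fisher p = 0.441), and chromosome 4 held 0 of the 239 and 16 of the 4980 without a run (0.321%).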

How the data were processed

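The deposited narrowPeak lists on dm6 were used: 1 list of 30000 regions for each of 3 replicates, 1 for the pooled replicates and the reproducible set. Their signal values are the authors' and were compared only as ranks within a list. The aligner, peak caller, thresholds and read filters were not stated in the labels or files, and depth is unknown. Lists on dm3 were not used, and 2906 pooled candidates within 500 bp of a strong region were left out. Windows were read from the RefSeq Release 6 sequence, and locations from Ensembl release 115 (BDGP6.54) without transposable elements. Work was done in Python 3.11.15 with scipy 1.17.1 and pandas 2.3.3, and the run finder was tested on simulated windows. Tests were two-sided Fisher's exact tests over peaks, an exact McNemar test for flanks, an exact binomial test for strand and an exact sign-flip permutation test over replicates. Adjustment was Benjamini-Hochberg over 12 results, or over 20 motifs, with a threshold of 0.05. Intervals are exact 95% intervals (Clopper-Pearson for shares) and cover counting error only. Peaks named are the 20 of highest signal, the 10 of longest run, up to 4 genes of each of 26 gene lists, and Trl, psq, lola, mod(mdg4) and BtbVII. Of the list entries, 12 matched by an older symbol and 7 matched no gene. The members, lists and tests were chosen with earlier results of these data known. Alternatives varied run length, window, TSS set, peak set and supporting replicates. Those on GC content, region width, single-replicate rank and transposable elements were added after the data were seen.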

Additional observations from a re-analysis of the deposited data

How the results depend on the processing

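Values are odds ratios (for flanks, the ratio of discordant pairs), and the cause of each change was not tested. With runs of at least 6 bases the values were 1.15 for promoters, 0.884 for introns, 0.779 for intergenic sequence, 1 for the higher-signal share, 1.22 for a neighbour within 1000 bp (now past the threshold) and 0.988 for X. At 10 bases they were 1.25, 0.901, 0.428 and 1 for the first 4. At 12 bases they were 1.02, 1.02 and 0.637 for promoters, introns and intergenic sequence, and 2.33 for C and A runs. Fewer peaks are members at 10 or 12 bases. With 50 bp windows the strong to weaker excess was 1.34, the flank ratio 1.02, promoters 1.65, introns 0.678, intergenic sequence 0.494 and C and A runs 1.55, none past the threshold. With 250 bp windows introns were at 0.875 and support at 1.15, while the higher-signal share (1.25), a neighbour (1.30) and X (1.28) passed; for the higher-signal share the 50 bp window gave 0.747, which did not pass. The 2609 peaks of higher signal gave 1.12 for flanks, 0.962 for upstream summits and 0.702 for introns. Peaks supported by all 3 replicates gave 1.13 for flanks, 1.44 for promoters, 0.734 for introns, 0.515 for intergenic sequence and 1.11 for the higher-signal share. With 1 peak per overlapping group introns were at 0.729, with a 250 bp TSS window at 0.745, and of summits outside promoters introns were at 1.01 and intergenic sequence at 0.639. A neighbour within 5000 bp gave 1.39. Runs of C and A and of T and A both gave 0.928 between strong and weaker windows. Peaks supported by both replicates of a pair, for each of the pairs, gave 1.10 to 1.29 for flanks, 1.36 to 1.60 for promoters, 0.652 to 0.752 for introns, 0.474 to 0.634 for intergenic sequence and 0.802 to 1.30 for the higher-signal share. These are subsets of the same strong peaks, and the pooled list and its ranks still held the remaining replicate. Support counted in each pair, over all strong peaks, gave 0.724 to 1.01.

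At 40 to 50% GC, an alternative added after the data were seen, promoters gave 0.941, introns 0.953, intergenic sequence 0.834 and C and A runs 1.94, none past the threshold. Of the motifs, DRE (1.04), the Zelda core (1.01), the Ets core (0.859), TTAGGG (1.14) and the forkhead site (0.857) then changed direction. None of them passed the threshold, over all windows or in this GC band. Rank in replicate 1 alone gave 1.30 and in replicate 3 alone 1.12 for the higher-signal share. The low GC of windows without a run and the excess of runs at strong over weaker windows kept direction and side of the threshold under every other alternative run for them, apart from the C and A and T and A runs and the 50 bp window above. Depth is unknown, 239 peaks give wide intervals, and a value that misses the threshold does not show equality.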
